A study of Mus musculus with 34 samples.

Results

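The cortex of monocyte-engrafted mice (GFP-BM REPOP) was compared with the cortex of irradiated control mice (GFP-BM CON). The comparison used 8 of the 34 RNA-seq libraries of the study, 4 per group, chosen by the region and treatment in their labels, and each library came from the cortex of a single mouse. All were male C57BL/6 mice that received 1000 cGy of whole-body irradiation and then whole bone marrow from CAG-EGFP donors, whose GFP is driven by the ubiquitous CAG promoter. The sources differ on their age at the start, which is 1.5 months in the general methods and 4 months in the outline of the transplant. The GFP-BM REPOP mice were then fed PLX3397, an inhibitor of the receptor CSF1R that eliminates microglia, at 600 ppm in chow for 14 days, starting 3.5 months after the transplant, and their tissue was taken 6 months after the inhibitor was withdrawn. A further 3 cortex libraries came from WT CON mice, which had neither irradiation, graft nor inhibitor. These entered the model and serve as a reference level. Both compared groups carried the irradiation and the graft, so the contrast held the inhibitor and what followed it, and these cannot be told apart.

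Microglia are the resident macrophages of the brain parenchyma. They arise from yolk sac progenitors before birth, renew themselves locally and need CSF1R signalling to survive. Monocytes arise from haematopoietic stem cells in the bone marrow, and when the microglial niche is emptied in an irradiated host they can enter the brain and settle there as macrophages. Such cells are known to take on many microglial transcripts while keeping a macrophage profile of their own.

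The upstream sequences of *Lyz2*, *Ms4a7* and *Ms4a6c*, which rose, and of the microglial gene *P2ry12*, whose GFP-BM REPOP libraries all lay below the controls, are shown because they hold a match to a motif of the ETS family, to which PU.1, a main regulator of macrophage lineages, belongs. The called genes *Mpeg1*, *Apobec1* and *Slc2a5* had no match to either motif searched for and are not printed, nor are the other genes of the library plots. Each is the 250 bases before the start that the promoter table uses, from RefSeq on GRCm38.p6, the assembly known as mm10, which is the build named in the submitters' processing notes. For *Ms4a6c* that start lies inside the gene's outermost annotated bounds, so the last bases of its sequence fall within the annotated gene. Capitals mark the ETS core GGAAGT on either strand. The PU box GAGGAA, which can share its GGAA with an ETS core, was searched for on both strands as well and had no match in these 4 sequences.
Lyz2, chr10:117282273-117282522, minus strand: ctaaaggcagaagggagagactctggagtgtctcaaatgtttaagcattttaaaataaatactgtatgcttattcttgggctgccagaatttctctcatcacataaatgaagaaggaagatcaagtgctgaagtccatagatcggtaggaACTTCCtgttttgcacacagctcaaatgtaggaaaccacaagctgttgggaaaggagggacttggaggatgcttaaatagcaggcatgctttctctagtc
Ms4a7, chr19:11336147-11336396, minus strand: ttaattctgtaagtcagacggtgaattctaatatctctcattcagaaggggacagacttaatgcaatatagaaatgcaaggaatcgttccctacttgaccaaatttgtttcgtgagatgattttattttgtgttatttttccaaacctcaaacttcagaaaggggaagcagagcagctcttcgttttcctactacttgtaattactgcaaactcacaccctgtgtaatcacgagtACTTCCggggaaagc
Ms4a6c, chr19:11469118-11469367, plus strand: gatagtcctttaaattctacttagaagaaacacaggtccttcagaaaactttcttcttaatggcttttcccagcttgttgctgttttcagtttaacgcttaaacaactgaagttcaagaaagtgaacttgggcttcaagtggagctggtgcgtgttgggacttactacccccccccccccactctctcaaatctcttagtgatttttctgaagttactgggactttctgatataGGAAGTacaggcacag
P2ry12, chr3:59262986-59263235, minus strand: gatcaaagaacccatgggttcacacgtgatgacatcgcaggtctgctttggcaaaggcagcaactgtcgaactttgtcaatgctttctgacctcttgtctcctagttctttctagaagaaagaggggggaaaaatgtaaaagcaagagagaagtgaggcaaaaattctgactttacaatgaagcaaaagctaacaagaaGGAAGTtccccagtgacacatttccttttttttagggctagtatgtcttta
Of the 7 genes called below, 6 had a promoter in the reference table. GGAAGT stood in 3 of these 6, and in 20.0% of the 27025 promoters searched. GAGGAA stood in 0 of the 6 and in 23.1% of all. Both words were chosen with these sequences in view, and a match is a description of the letters and not of binding.

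Values are FPKM, the reads of a gene scaled to its length and to the depth of the library. A log2 fold change is the mean log2(FPKM + 0.1) of GFP-BM REPOP minus that of GFP-BM CON, a scale that understates the change of low genes. Of 16389 genes, 14138 reached 1 FPKM in at least 3 of the 11 cortex libraries and were tested with limma, and DEGs are those with a Benjamini-Hochberg adjusted p under 0.05. The compared libraries held 18376162 to 21224031 recovered reads in GFP-BM REPOP and 20843807 to 26010509 in GFP-BM CON. The tissue was cortex by its labels. *Slc17a7*, a glutamate transporter gene of excitatory neurons, stood at 534 to 574 FPKM in GFP-BM REPOP and 547 to 559.5 in GFP-BM CON. Genes of neighbouring regions are described below. GFP-BM REPOP replicate 1 stood apart in base composition. The median log2 level of its most GC-rich genes exceeded that of its most GC-poor genes by 0.99, against 0.41 to 0.59 in the other 3 libraries of its group and 0.43 to 0.58 in GFP-BM CON. GFP-BM REPOP replicate 2 stood apart at a cluster of genes on chromosome 4, described last. Counts without each library are given with the number of DEGs.

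Macrophage genes were higher in the monocyte-engrafted cortex, and 7 DEGs were found in all. The 6 that rose (0.0424% of genes tested) were *Lyz2*, *Ms4a7*, *Ms4a6c*, *Apobec1*, *Adgre1* and *Mpeg1*, which are expressed in monocytes or macrophages. The single gene that fell (0.00707%) was *Slc2a5*, the fructose transporter of microglia. At an unadjusted p under 0.05, 259 genes were higher (1.83%) and 347 lower (2.45%). All 4 GFP-BM REPOP libraries lay above all 4 GFP-BM CON libraries for 190 genes (1.34%) and below them for 246 (1.74%). The median log2 fold change of all genes tested was -0.01.

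The number of DEGs depended on single libraries. It was 30 without GFP-BM REPOP replicate 2, 7 without WT CON replicate 2 and 5 without GFP-BM REPOP replicate 1. It was 3 without WT CON replicate 1 or GFP-BM CON replicate 3, and 2 without WT CON replicate 3, GFP-BM CON replicate 1 or GFP-BM CON replicate 4. It was 1 without GFP-BM CON replicate 2, GFP-BM REPOP replicate 3 or GFP-BM REPOP replicate 4. *Lyz2* was called in all 11 of these fits, *Ms4a7* in 8, *Mpeg1* in 3, *Adgre1* and *Ms4a6c* in 2 each, and *Apobec1* and *Slc2a5* in 1, that without GFP-BM REPOP replicate 2.

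**Figure D1:**
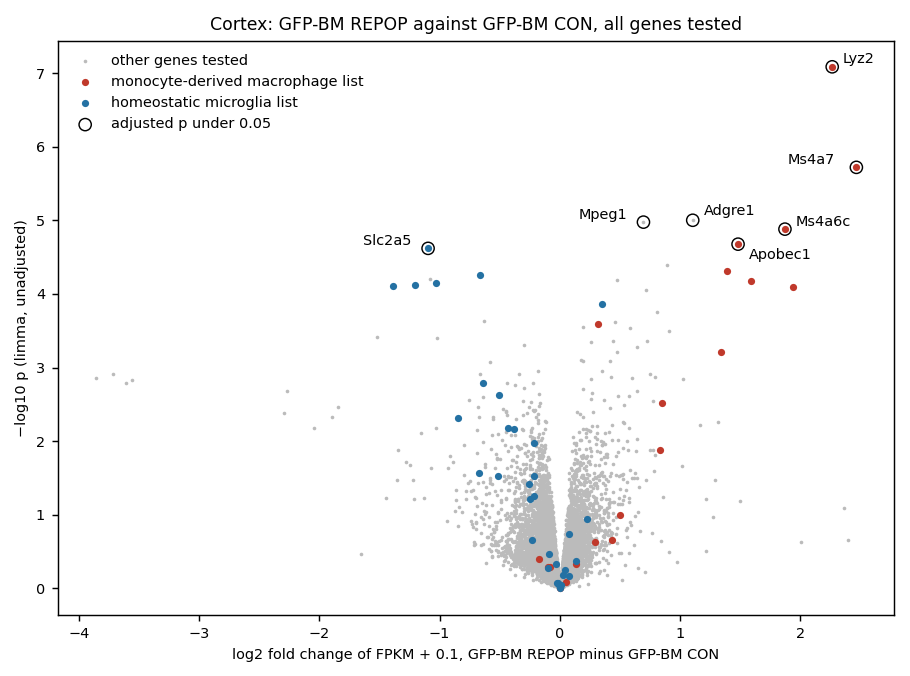
Each point is 1 of the 14138 genes tested in the cortex, with the log2 fold change of FPKM + 0.1 (GFP-BM REPOP minus GFP-BM CON) on the horizontal axis and −log10 of the unadjusted limma p on the vertical axis. Red points are the monocyte-derived macrophage list, blue points the homeostatic microglia list, and circles the 7 DEGs, among which Lyz2 stands highest at a log2 fold change of 2.27 and Slc2a5, at -1.10, is the only DEG on the left.

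*Lyz2* (chromosome 10, 117277541 to 117282272) encodes lysozyme M, the bactericidal enzyme of monocytes, macrophages and neutrophils. It stood at 73.5, 51.7, 52.0 and 85.0 FPKM in the 4 GFP-BM REPOP libraries and at 14.5, 17.6, 12.6 and 9.57 in the 4 GFP-BM CON libraries. The lowest monocyte-engrafted library was above the highest irradiated control. The log2 fold change was 2.27 ± 0.19 (SE), a 4.81-fold rise with a 95% interval of 1.85 to 2.68 on the log2 scale and an adjusted p of 0.0012 by limma. WT CON stood at 7.55, 6.86 and 7.96, below every irradiated control. Of granulocyte genes, *S100a9* lay between 0.235 and 0.747 FPKM in GFP-BM REPOP and between 0.105 and 0.833 in GFP-BM CON, and *S100a8* and *Ly6g* were not analysed here.

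*Ms4a7* (chromosome 19, 11321039 to 11336146) encodes a membrane protein of the MS4A family that marks macrophages outside the parenchyma. It stood at 4.59, 4.16, 3.39 and 4.55 FPKM in GFP-BM REPOP and at 0.970, 0.487, 0.986 and 0.411 in GFP-BM CON. The groups did not overlap, and WT CON was lower again, at 0.0955, 0.185 and 0.262. The rise was 2.47 ± 0.28 (SE) on the log2 scale, with an adjusted p of 0.013, and the irradiated controls rested on 8 to 22 reads. *Ms4a6c*, a family member expressed by monocytes, stood at 1.77, 1.18, 1.504 and 2.46 against 0.464, 0.470, 0.276 and 0.352, without overlap. It rose by 1.87 ± 0.26 (adjusted p = 0.037), with 11 to 23 reads in an irradiated control. *Ms4a6b*, a further member, stood at 1.38, 1.06, 1.45 and 1.76 against 0.859, 0.904, 0.701 and 0.543, and although its groups were apart its adjusted p was 0.90. These genes are related in sequence, so reads may be shared among them.

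*Apobec1*, a cytidine deaminase that edits Apob mRNA and is expressed in myeloid cells, stood at 3.09, 1.47, 2.66 and 2.88 FPKM in GFP-BM REPOP and at 0.658, 0.875, 0.840 and 0.872 in GFP-BM CON. Replicate 2 was the lowest monocyte-engrafted library but was above all irradiated controls. The rise was 1.48 ± 0.22 on the log2 scale (adjusted p = 0.049). *Ms4a7*, *Ms4a6c* and *Apobec1* passed the filter on low values only through the GFP-BM REPOP libraries, so that a difference was built into their passing. With no filter, their adjusted p values by limma were 0.012, 0.033 and 0.033.

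*Adgre1* and *Mpeg1* passed the filter without that help. *Adgre1*, which encodes the macrophage marker F4/80, stood at 3.15, 2.51, 3.34 and 4.24 FPKM in GFP-BM REPOP against 1.44, 1.68, 1.47 and 1.28 in GFP-BM CON. It rose by 1.10 ± 0.15 (adjusted p = 0.037), and WT CON, at 1.603, 1.57 and 1.42, lay within the range of the irradiated controls. *Mpeg1* encodes perforin-2, a pore-forming protein of the macrophage phagosome. It stood at 9.90, 8.99, 10.2 and 12.4 against 6.27, 6.52, 6.22 and 6.34 and rose by 0.70 ± 0.09 (adjusted p = 0.037). Its irradiated controls were close together and every monocyte-engrafted library was above them.

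A further 6 genes complete the 12 rises with the smallest p among genes whose groups did not overlap, and they did not pass the test. *Cxcl16*, a membrane-bound chemokine and scavenger receptor of macrophages, stood at 1.44, 1.29, 1.26 and 1.53 FPKM against 0.693, 0.768, 0.651 and 0.669, a log2 fold change of 0.90 ± 0.14. *Cybb*, the catalytic subunit of the phagocyte NADPH oxidase, stood at 1.82, 1.09, 1.98 and 2.58 against 0.305, 0.610, 0.401 and 0.314, a log2 fold change of 1.93 ± 0.32. *Lilrb4a*, an inhibitory receptor of myeloid cells, stood at 1.75, 3.03, 2.77 and 3.38 against 0.554, 0.823, 0.906 and 1.05. For each of these 3 genes the lowest monocyte-engrafted library exceeded the highest control, and each passed the filter only through GFP-BM REPOP. *Apoe*, the apolipoprotein made by astrocytes and by activated macrophages, stood at 1655, 1409, 1399 and 1726 against 1228, 1049.9, 1112 and 1049.9, a log2 fold change of 0.48 ± 0.08. *AU020206*, a non-coding transcript, stood at 3.88, 2.25, 3.68 and 3.40 against 1.5, 1.25, 0.858 and 1.15. *Stab1*, the scavenger receptor stabilin-1, stood at 4.51, 3.68, 3.80 and 4.07 against 2.52, 2.505, 2.23 and 2.38. The adjusted p was 0.066 for the first 5 and 0.07 for *Stab1* (limma). Without the filter, *Cxcl16* was called as well (adjusted p = 0.033).

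**Figure D2:**
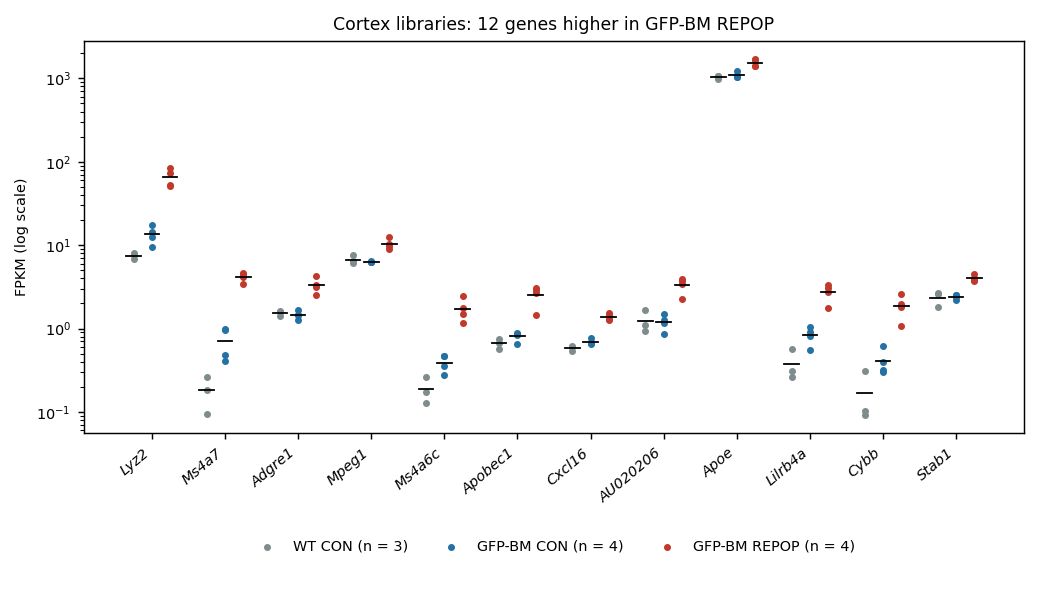
FPKM on a log axis in each cortex library for the 12 genes with the smallest p among those whose GFP-BM REPOP libraries (red, 4) all lay above the GFP-BM CON libraries (blue, 4), with the 3 WT CON libraries in grey and bars at the group means. Mean Lyz2 is 13.6 in GFP-BM CON and 65.6 in GFP-BM REPOP, while mean Apoe is 1110 and 1547.

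Of the 40 genes listed for monocyte-derived macrophages, 28 were in the table and 20 passed the filter, 8 of them only through GFP-BM REPOP. The list was therefore counted without the filter. There, 17 of the 28 had an unadjusted p under 0.05 with a higher level and 0 with a lower level, and the shares over all genes were 2.15% and 2.4%. Their median log2 fold change was 0.84, and 25 were positive. The list holds genes that the study itself discussed in these samples, so it is not independent evidence of its direction, and the same holds for the microglial list below. *Ccr1*, a receptor for inflammatory chemokines that stayed under the filter, stood at 0.403, 0.446, 0.422 and 0.883 FPKM against 0.117, 0.126, 0.236 and 0.0170. *Msr1*, the class A scavenger receptor, stood at 0.312, 0.244, 0.286 and 0.717 against 0.0518, 0.0890, 0.0901 and 0.0362. In both, the groups were apart, but no irradiated control held more than 13 reads of either. The defining monocyte genes *Ccr2* and *Ly6c2* were not analysed here.

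Border-associated macrophages live in the meninges and around vessels, and their markers did not move as one. *Mrc1*, the mannose receptor CD206, stood at 1.61, 1.04, 1.11 and 1.98 FPKM against 0.708, 0.679, 0.755 and 0.770. The groups were apart, with a log2 fold change of 0.85 ± 0.23 and an adjusted p of 0.57. *Pf4*, a chemokine of platelets and of these macrophages, overlapped at 2.38, 0.977, 2.12 and 2.57 against 1.13, 0.778, 0.525 and 0.820. *Cd163*, the haemoglobin scavenger receptor that defines them, overlapped too, at 0.474, 0.511, 0.598 and 0.452 against 0.516, 0.837, 0.481 and 0.633. *Lyve1* was not analysed here. Of the 14 listed genes in the table, 6 had an unadjusted p under 0.05 with a higher level and 1 with a lower level when no filter was used, against 2.15% and 2.4% over all genes. *Ms4a7*, already counted for monocyte-derived macrophages, is on this list too. The median log2 fold change was 0.41 without the filter. The summed level of the list was 22.4 to 39.0 FPKM in GFP-BM REPOP and 15.98 to 18.4 in GFP-BM CON. The part of these cells in the results was not tested.

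Homeostatic microglial genes were lower as a list, but not all of them. Of 39 genes 33 passed the filter, 3 of them with no GFP-BM REPOP library at 1 FPKM, and *Slc2a5* was the DEG among the 33. At an unadjusted p under 0.05, 15 had a lower level and 1, *Csf1r*, a higher one, against 2.45% and 1.83% over all genes tested. Without the filter, 19 of the 39 were lower and 2 higher, where the shares over all genes were 2.4% and 2.15%. The median log2 fold change of the 33 tested genes was -0.21, against -0.01 over all genes tested. It lay between -0.25 and -0.14 over 25 alternative settings. In bulk tissue, fewer cells of a type and less RNA per cell cannot be told apart.

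*Slc2a5* (chromosome 4, 150119344 to 150144168) stood at 0.687, 0.890, 0.498 and 0.623 FPKM in GFP-BM REPOP and at 1.38, 1.48, 1.61 and 1.67 in GFP-BM CON. It fell by 1.10 on the log2 scale (SE 0.16, adjusted p = 0.049). *Slc2a5* passed the filter only through the GFP-BM CON and WT CON libraries, so that a difference was built into its passing. With no filter, its adjusted p by limma was 0.033. Every monocyte-engrafted library was below every control, and WT CON lay within the irradiated range, at 1.65, 1.49 and 1.45. *P2ry12*, the purinergic receptor that steers microglial processes towards ATP, stood at 4.17, 5.70, 4.45 and 4.14 against 9.86, 8.39, 8.98 and 10.9, a log2 fold change of -1.03 ± 0.17. *Siglech*, a sialic acid-binding lectin of microglia, stood at 2.55, 2.32, 1.99 and 1.80 against 3.31, 3.71, 3.50 and 3.32, a log2 fold change of -0.66 ± 0.11. Both were separate between groups but did not pass the test, with an adjusted p of 0.066.

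*Crybb1* and *Selplg* were graded over the 3 groups of the cortex. *Crybb1*, a crystallin gene used as a microglial marker, stood at 1.25, 0.790, 1.14 and 0.656 FPKM in GFP-BM REPOP, at 2.23, 3.55, 2.77 and 2.04 in GFP-BM CON and at 6.42, 3.98 and 6.16 in WT CON. *Selplg*, the selectin ligand PSGL-1, stood at 1.73, 1.68, 1.03 and 0.820, at 2.75, 3.12, 3.28 and 3.02 and at 5.01, 4.55 and 3.93. For both genes no library of one group overlapped with the next. The log2 fold changes of the first group against the second were -1.38 ± 0.23 and -1.21 ± 0.20, each with an adjusted p of 0.066. *Lag3*, an immune checkpoint receptor also carried by microglia, had the same order of means, 0.861, 1.59 and 3.17 FPKM, but the first 2 groups overlapped.

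*Tmem119*, a surface protein particular to microglia in brain, stood at 7.22, 4.88, 4.61 and 4.88 FPKM against 7.15, 7.68, 7.28 and 8.26. Replicate 1 of GFP-BM REPOP lay within the irradiated range and the other 3 were below it, and the adjusted p was 0.51 for a log2 fold change of -0.51 ± 0.13. *Sall1*, the transcription factor that maintains microglial identity, stood at 3.20, 3.77, 3.22 and 2.97 against 7.51, 4.16, 5.03 and 4.46, apart, at an adjusted p of 0.41. *Cx3cr1*, the fractalkine receptor shared by microglia and monocytes, had a log2 fold change of 0.05 ± 0.08, with a 95% interval of -0.12 to 0.21.

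*Csf1r*, the receptor that PLX3397 blocks, went the other way from most of its list. It stood at 16.1, 13.9, 15.5 and 15.1 FPKM in GFP-BM REPOP and at 10.8, 12.2, 11.7 and 12.8 in GFP-BM CON, apart, with a log2 fold change of 0.35 ± 0.06 and an adjusted p of 0.10. WT CON was above both, at 20.1, 19.1 and 20.7. The means of its ligands *Csf1* and *Il34* were 6.21 and 31.5 FPKM in GFP-BM REPOP and 6.22 and 32.4 in GFP-BM CON. *Ctss*, the cathepsin S of antigen-presenting cells, had means of 36.9, 28.9 and 40.02 FPKM in GFP-BM REPOP, GFP-BM CON and WT CON, and the first 2 groups overlapped.

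**Figure D3:**
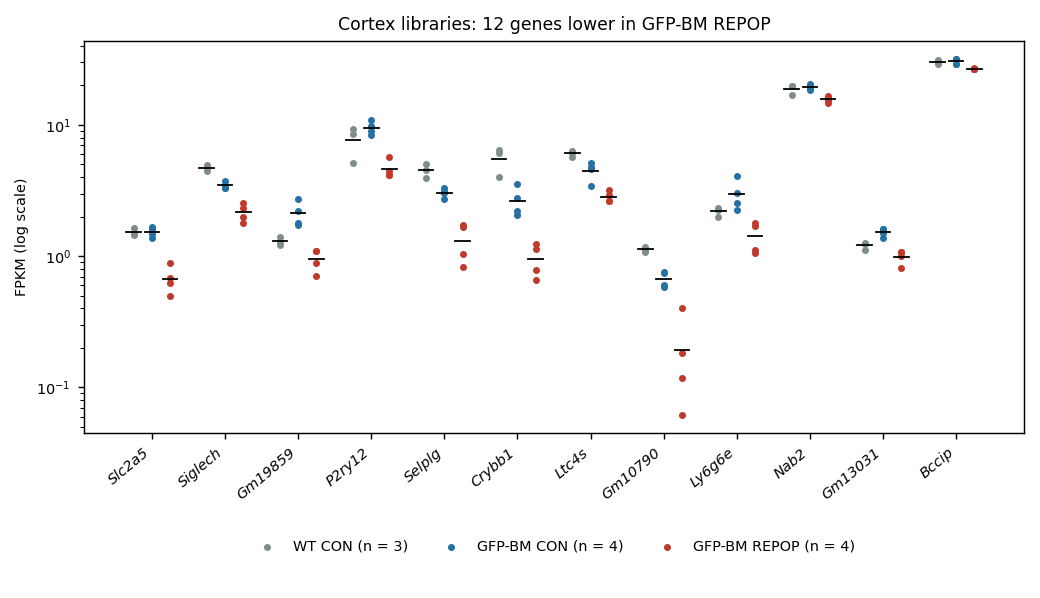
FPKM on a log axis in each cortex library for the 12 genes with the smallest p among those whose GFP-BM REPOP libraries (red, 4) all lay below the GFP-BM CON libraries (blue, 4), with the 3 WT CON libraries in grey and bars at the group means. Mean P2ry12 is 9.52 in GFP-BM CON and 4.62 in GFP-BM REPOP, and Crybb1 and Selplg step down from WT CON to GFP-BM CON to GFP-BM REPOP.

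The remaining falls among these 12 did not pass the test either. *Ltc4s*, the leukotriene C4 synthase of myeloid cells, stood at 3.18, 2.64, 2.62 and 2.92 FPKM against 4.65, 4.75, 3.41 and 5.16 (adjusted p = 0.15). The predicted gene *Gm10790* stood at 0.184, 0.406, 0.117 and 0.0614 against 0.586, 0.599, 0.758 and 0.739, from 2 to 12 reads in a monocyte-engrafted library (adjusted p = 0.20). Both were apart between groups. *Nab2*, a co-repressor of EGR factors, and *Bccip*, a partner of BRCA2, had small differences of -0.30 ± 0.06 and -0.18 ± 0.04 on the log2 scale. *Gm19859*, *Ly6g6e* and *Gm13031* had log2 fold changes of -1.08 ± 0.18, -1.02 ± 0.21 and -0.58 ± 0.13, from at most 39 reads in a monocyte-engrafted library.

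Among genes shared by all myeloid cells, 24 of 29 passed the filter, 1 of them only through GFP-BM REPOP, and 0 were DEGs by limma. At an unadjusted p under 0.05, 10 were higher and 1 lower, against shares of 1.83% and 2.45% over all genes tested, with a median log2 fold change of 0.18. *Cd68*, a lysosomal glycoprotein of phagocytes, stood at 10.6, 8.09, 7.56 and 9.72 FPKM against 6.53, 7.06, 6.94 and 6.79, apart but with an adjusted p of 0.79. *Aif1*, which encodes IBA1, had means of 5.95 ± 1.17 and 5.23 ± 0.734 FPKM (SD, n = 4 each), which overlapped. *Spi1*, which encodes PU.1, lay between 1.51 and 3.46 in GFP-BM REPOP and between 1.83 and 2.82 in GFP-BM CON. The summed level of the list was 294 to 347 FPKM and 275 to 289, whereas that of the macrophage list was 124 to 172 and 67.9 to 80.5. Of the macrophage list, *Lyz2* alone had means of 65.6 and 13.6 FPKM.

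Genes of the disease-associated state of microglia were mixed. Of 25 tested, 1 passed the filter only through GFP-BM REPOP. At an unadjusted p under 0.05, 6 of the 25 had a higher level and 0 a lower level, against 1.83% and 2.45% over all genes tested. *Lyz2*, which is on this list too, was the DEG. The median log2 fold change was 0.04. *Axl*, a receptor for dying cells, stood at 11.4, 10.5, 11.1 and 11.9 FPKM against 9.37, 9.06, 8.44 and 8.97 (adjusted p = 0.16). *Ctsd*, the lysosomal aspartic protease, stood at 191, 179, 171 and 180.1 against 160.5, 157, 156 and 155 (adjusted p = 0.16). Both were apart. *Clec7a*, the beta-glucan receptor dectin-1, stayed under the filter at 0.912, 0.959, 0.853 and 1.44 against 0.182, 0.469, 0.271 and 0.169, with an adjusted p of 0.058 when no filter was used. *Trem2*, a lipid receptor of microglia, had a log2 fold change of 0.19 ± 0.11, and lipoprotein lipase *Lpl* of 0.05 ± 0.19.

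Over 37 lysosomal genes the median log2 fold change was 0.0044, with 0 DEGs by limma. At an unadjusted p under 0.05, 6 were higher and 1 lower, against 1.83% and 2.45% over all genes tested. *Ctsc*, the cathepsin that activates leukocyte serine proteases, stood at 4.56, 3.16, 3.69 and 5.18 FPKM against 2.19, 2.32, 2.23 and 1.79, a log2 fold change of 0.91 ± 0.18 with an adjusted p of 0.17. *Slc11a1*, the metal transporter NRAMP1 of the phagosome, stood at 2.46, 1.57, 1.45 and 1.81 against 0.862, 1.17, 1.07 and 1.00 (adjusted p = 0.38). The groups were apart for both. In the NADPH oxidase, the partner subunit of *Cybb*, *Cyba*, had a log2 fold change of 0.39 ± 0.14 and the cytosolic subunit *Ncf1* of 0.12 ± 0.11, and both overlapped.

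The lists of immune pathways held 0 DEGs among 155 tested genes by limma, and 5 of these passed the filter only through GFP-BM REPOP. At an unadjusted p under 0.05, 25 were higher and 5 lower, against 1.83% and 2.45% over all genes tested. Without the filter, 35 of 197 were higher and 7 lower, against 2.15% and 2.4% over all genes, and 1 of the 197 was a DEG. In the complement system, *C4b*, cleaved to opsonise targets, stood at 18.6, 18.4, 15.3 and 14.5 FPKM against 12.5, 10.9, 10.01 and 11.1 (adjusted p = 0.16). *Cd59a*, which blocks the membrane attack complex, stood at 7.71, 6.09, 7.07 and 7.05 against 5.74, 5.25, 4.29 and 4.71 (adjusted p = 0.25). Both were apart between groups. The MHC class II genes *H2-Ab1* and *Cd74* had log2 fold changes of 0.78 ± 0.30 and 0.58 ± 0.22, with overlap, and the median over the 7 tested genes of that list was 0.35.

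Of 25 tested interferon-stimulated genes, 18 had a negative log2 fold change and 7 a positive one, with a median of -0.11. Over all genes tested, 8238 of 14138 were negative. Of the 25, 2 were higher and 3 lower at an unadjusted p under 0.05, against 1.83% and 2.45% over all genes tested. *Isg15*, a ubiquitin-like modifier, stood at 2.13, 1.44, 2.24 and 2.00 FPKM against 2.63, 3.70, 2.72 and 2.61, apart and lower. *Bst2*, which tethers budding virus, stood at 10.1, 6.95, 10.6 and 7.93 against 5.22, 5.88, 3.81 and 5.202, apart and higher. Their adjusted p values were 0.69 and 0.12. Among Fc receptors, the inhibitory *Fcgr2b* had a log2 fold change of 0.48 ± 0.12 and the activating *Fcgr3* of -0.30 ± 0.11, with adjusted p values of 0.52 and 1.00. Of 19 Toll-like receptor and adaptor genes in the table, 8 passed the filter. *Tlr8*, an endosomal sensor of single-stranded RNA that did not, stood at 0.559, 0.437, 0.363 and 0.231 FPKM against 0.0655, 0.113, 0.0652 and 0.0458, from 3 to 7 reads in an irradiated control. *Tnf*, *Il1b* and *Ccl2* were not analysed here.

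Over lists of other cell types, 0 of 178 tested genes were DEGs by limma, and over neuronal lists 0 of 168. At an unadjusted p under 0.05, 5 of the 178 were higher and 5 lower, and 5 and 3 of the 168. The shares over all genes tested were 1.83% higher and 2.45% lower. Of the 178, 3 passed the filter only through GFP-BM REPOP. Median log2 fold changes were -0.03 for astrocytes, 0.04 for oligodendrocytes, -0.02 for endothelium, -0.03 for excitatory neurons and -0.07 for interneurons. The reactive astrocyte list had a median of 0.09, and 1 of its 20 tested genes passed the filter only through GFP-BM REPOP. At an unadjusted p under 0.05, 4 of the 20 were higher and 0 lower, against 1.83% and 2.45% over all genes tested. The 4 were *Gfap* and 3 that are immune genes as well, *C4b*, *Cd14* and *Psmb8*. *Gfap*, the filament protein of reactive astrocytes, stood at 70.8, 51.9, 36.8 and 46.5 FPKM against 32.97, 33.5, 38.2 and 45.5, with overlap. Its log2 fold change was 0.43 ± 0.17, with an unadjusted p of 0.027 and an adjusted p of 0.999 by limma. The myelin gene *Mbp* had a log2 fold change of 0.02 ± 0.10, the postsynaptic scaffold gene *Dlg4* of -0.03 ± 0.04 and the tight junction gene *Cldn5* of 0.08 ± 0.12.

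**Figure D4:**
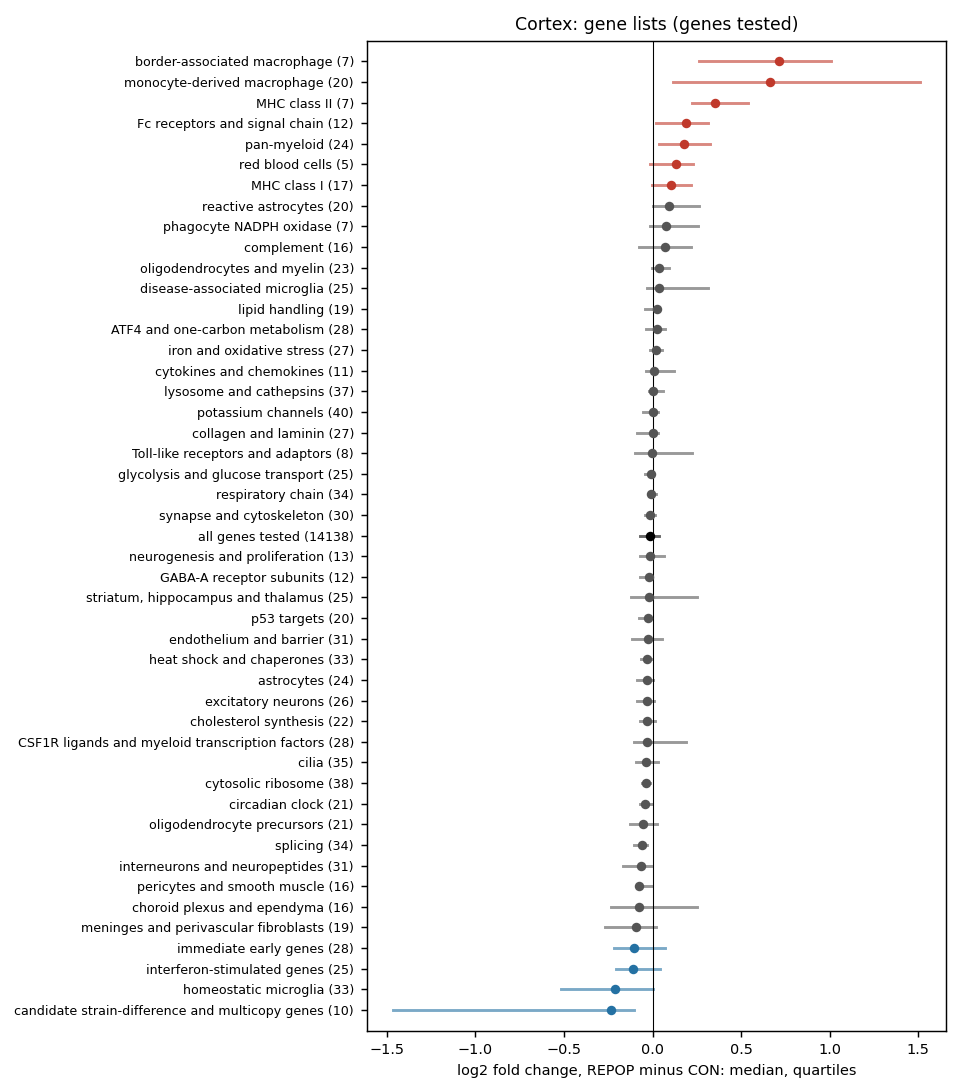
Median (point) and quartiles (line) of the log2 fold change (GFP-BM REPOP minus GFP-BM CON) in the cortex for each list with 5 or more genes tested (number in brackets) and for all 14138 genes tested (black), with medians above 0.1 in red and below -0.1 in blue. Of the border-associated and monocyte-derived macrophage lists, 4 and 8 genes passed the filter only through GFP-BM REPOP, and their plotted medians of 0.71 and 0.66 become 0.41 and 0.84 without it.

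Signs of other cells and of neighbouring tissue were read beside these results, and their part in them was not tested. The haemoglobin gene *Hba-a1* ranged from 67.6 to 238 FPKM in GFP-BM REPOP and from 73.3 to 141 in GFP-BM CON. The choroid plexus gene *Ttr* ranged from 49.8 to 358 and from 47.7 to 398. Both overlapped widely, and the T cell gene *Cd3e* and the B cell gene *Cd79a* were not analysed here. *C1ql2*, a synaptic organiser of dentate granule cells, stood at 13.3, 5.23, 2.14 and 2.89 FPKM in GFP-BM REPOP and at 1.45, 1.14, 2.24 and 2.89 in GFP-BM CON. *Tcf7l2*, a transcription factor of thalamic neurons, stood at 5.94, 4.81, 2.00 and 1.42 and at 1.75, 1.26, 1.53 and 1.30. In both genes, replicates 1 and 2 of GFP-BM REPOP were above all irradiated controls, and for *Tcf7l2* replicate 3 was above them too. Over the list of genes of striatum, hippocampus and thalamus, 3 of 25 tested genes were higher and 0 lower at an unadjusted p under 0.05. The shares over all genes tested were 1.83% and 2.45%.

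Among lists of cell states, 33 of 34 splicing genes had a negative log2 fold change, at a median of -0.06. So had 31 of 38 cytosolic ribosome genes and 250 of 377 genes tested over all these lists, against 8238 of 14138 over all genes tested. At an unadjusted p under 0.05, 2 of the 34 splicing genes were lower and 0 higher, against 2.45% and 1.83% over all genes tested. *Per2*, a clock gene, stood at 7.82, 7.63, 7.26 and 7.29 FPKM against 10.2, 8.002, 9.47 and 9.50, apart at an adjusted p of 0.46. *Cdkn1a*, the p53 target p21, stood at 7.22, 5.70, 7.79 and 7.82 against 13.1, 8.68, 10.3 and 7.75, with overlap and an adjusted p of 0.87. The activity genes *Fos* and *Arc* had log2 fold changes of 0.07 ± 0.44 and -0.32 ± 0.40, with wide errors.

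The hippocampus (8 libraries) and thalamus with striatum, called thalamus here (7 libraries) of the same groups were sequenced too, and whether the contrast differed between regions was tested in a limma model of all 34 libraries with the animal as a block. It differed between cortex and hippocampus for 17 genes (0.12% of genes tested). Between cortex and thalamus limma found 0 genes (0%), where 32 had an unadjusted p under 0.05 and voom called 0. Of the 17, 16 had a more positive contrast in the hippocampus, and none of the 7 cortical DEGs was among them. Base composition varied more among the hippocampus libraries than among the compared cortex libraries. The excess of GC-rich over GC-poor genes was 0.69 to 2.07 in GFP-BM CON and 1.46 to 2.60 in GFP-BM REPOP. The number of genes with correction for GC content is given with the other settings. The 17 include predicted genes on the stretch of chromosome 4 described last, where values of single copies are uncertain. *Il17d*, a cytokine of the interleukin 17 family, had log2 fold changes of 0.08 in the cortex and 1.00 in the hippocampus (adjusted p of the difference 0.01). *Lats2*, a kinase of the Hippo pathway, was the gene in the other direction, with 0.06 and -1.18. The number fell to 2 without GFP-BM CON hippocampus replicate 2 and rose to 80 without GFP-BM REPOP hippocampus replicate 3.

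The values of the cortical DEGs stand side by side as follows, as log2 fold changes ± SE in the cortex, hippocampus and thalamus. The SEs of the cortex came from the fit of the cortex libraries alone. Those of the hippocampus and thalamus came from the model of all libraries, so their sizes cannot be compared with those of the cortex. *Lyz2* had 2.27 ± 0.19, 1.52 ± 0.43 and 1.70 ± 0.46, *Ms4a7* had 2.47 ± 0.28, 1.52 ± 0.44 and 2.27 ± 0.47 and *Ms4a6c* had 1.87 ± 0.26, 1.198 ± 0.31 and 1.34 ± 0.34. *Apobec1* had 1.48 ± 0.22, 0.75 ± 0.22 and 1.23 ± 0.23, *Adgre1* had 1.10 ± 0.15, 1.01 ± 0.25 and 0.98 ± 0.27 and *Mpeg1* had 0.70 ± 0.09, 0.54 ± 0.16 and 0.76 ± 0.17. *Slc2a5* had -1.10 ± 0.16, -1.25 ± 0.21 and -0.90 ± 0.23. The direction was the same in all 3 regions for each of the 7. None differed from the hippocampus (lowest adjusted p 0.52, for *Apobec1*) or the thalamus past the threshold, which does not show the contrasts to be equal. For *Lyz2* the cortex minus hippocampus difference was 0.74 ± 0.62 on the log2 scale, by the model of all libraries. Its irradiated controls were spread in the hippocampus, at 13.7, 58.4, 11.9 and 66.2 FPKM against 41.92, 103, 82.4 and 123 in GFP-BM REPOP.

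**Figure D5:**
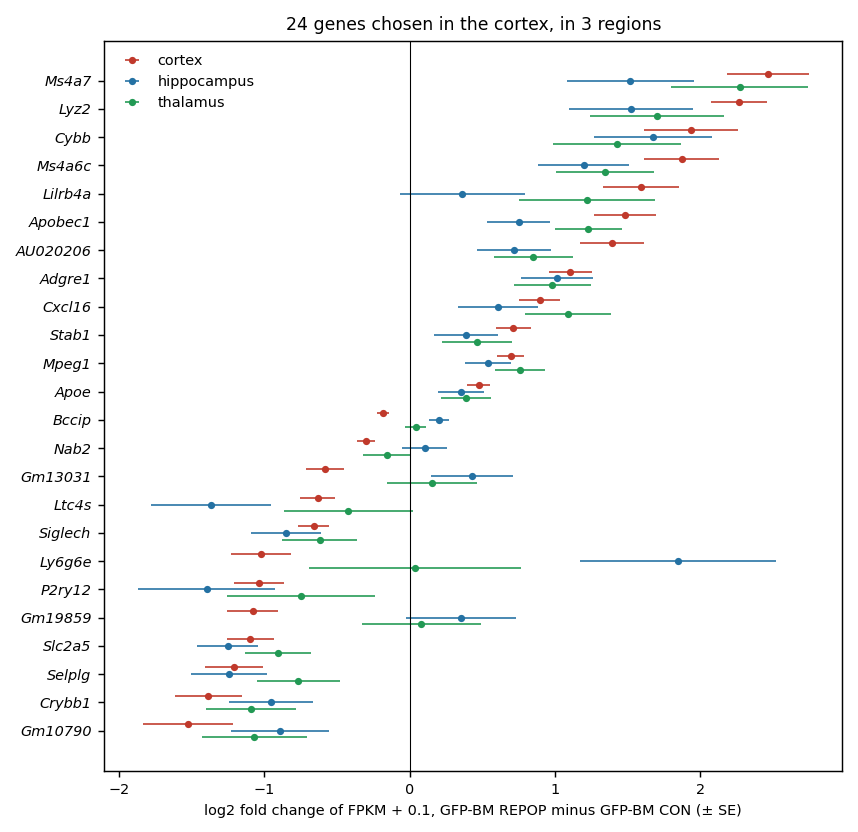
Log2 fold change of FPKM + 0.1 (GFP-BM REPOP minus GFP-BM CON, ± SE) in the cortex (red), hippocampus (blue) and thalamus (green) for the 12 rises and 12 falls with the smallest p in the cortex. Lyz2 is at 2.27, 1.52 and 1.70, while Ly6g6e is at -1.02 in the cortex and 1.85 in the hippocampus. The SEs of the cortex are from the fit of the cortex libraries alone and the others from the model of all libraries. Their sizes cannot be compared.

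At a cluster of genes on chromosome 4, GFP-BM REPOP libraries differed among themselves. *Ccl21b*, a copy of a chemokine gene that guides dendritic cells and T cells to lymph nodes, stood at 0.687, 24.1, 0.719 and 0.502 FPKM in GFP-BM REPOP and at 25.2, 24.8, 24.8 and 26.4 in GFP-BM CON. Replicate 2 was near the irradiated controls and the other 3 were far below them. In the same animals *Ccl21b* stood at 2.73, 17.2, 1.17 and 0.853 in the hippocampus and at 0.214, 6.22, 0.357 and 0.603 in the thalamus, with replicate 2 again the highest. The log2 fold change in the cortex was -3.86 ± 0.92 with an adjusted p of 0.40. Of 22 genes tested on the stretch of chromosome 4 that surrounds *Ccl21b* (42173120 to 42256825, GRCm38), 14 had replicates 1, 3 and 4 each below the lowest irradiated control, and 4 had replicate 2 below it. All 4 GFP-BM REPOP libraries were below the lowest irradiated control for 3 of the 22, against 246 of the 14138 genes tested (1.74%). The counts for replicates 1, 3 and 4 and for replicate 2 were not made over all genes tested. The stretch was chosen after its values were seen, so its counts do not show how unusual it is. The stretch, with 22 of the 14138 genes tested, supplied 9 of the 18 genes called lower without replicate 2. Copies there are nearly identical and share reads, so that values of single copies are uncertain. Whether all animals shared the same strain background here was not tested.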

How the data were processed

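RNA was sequenced from cortex, hippocampus and thalamus with striatum (called thalamus here), with paired reads of 150 bases. The deposited FPKM table was made by the authors, who aligned reads to mm10 with STAR v2.5.1b, counted them per gene with featureCounts and scaled them with limma and edgeR, per the labels and the methods of the study. Low FPKM values were whole multiples of the value of 1 read in 100% of cases (tolerance 0.01 read), and this gave the recovered reads. No molecular identifiers are described, so read numbers may include amplified copies and are not numbers of molecules. Here log2(FPKM + 0.1) was fitted with limma-trend 3.58.1 in R 4.3.3 over the 11 cortex libraries, for genes at 1 FPKM or more in at least 3 of them, with two-sided tests and Benjamini-Hochberg adjustment over all 14138 genes. Region differences, and the contrasts in the hippocampus and thalamus with their SEs, used all 34 libraries with the animal as a block. NovaSeq and HiSeq instruments were both used, and since the sources used here do not give the instrument of each library, no batch term was fitted. Groups came from the labels, each library of a region is a separate mouse by its label, and the procedure was tested on simulated data. Genes named are the DEGs, the 12 rises and 12 falls with the smallest p among genes without overlap between groups, the defining and the 3 leading members of each list, genes the study names, and leading region differences, of which 1 is not reported here. The members and lists were chosen with earlier results of these data known. Alternatives were the pseudocount, the filter, the scaling, the gene set, the groups in the fit, a replicate block, weights, GC and length correction, voom and leaving out each library.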

Additional observations from a re-analysis of the deposited data

Results flagged for a closer look

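Among 62 groups of libraries checked, 3 held a library far from the others of its group by Dixon's 95% limit, which chance passes in about 1 of 20 groups. *Apobec1* was lowest in GFP-BM CON replicate 1, at 0.658 FPKM, with the other 3 irradiated controls at 0.840 to 0.875. *Ccl21b* was highest in GFP-BM REPOP replicate 2, at 24.1 FPKM, with the other 3 at 0.502 to 0.719. *Gm21075*, a predicted gene, was highest in the same library, at 6.17 FPKM.

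For 5 named genes the contrast in the cortex differed from that in the hippocampus by the test of the difference (limma, adjusted over all genes tested). The cortex minus hippocampus difference of the log2 fold change was 1.24 for *Lats2* (adjusted p = 0.045). It was -0.92 for *Il17d*, -1.14 for *Plxdc1*, -0.99 for *Ier5* and -1.64 for *Sowahb*, with adjusted p values from 0.01 to 0.021.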

How the results depend on the processing

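The 7 DEGs of the cortex became 12 with a pseudocount of 1, 4 with one of 0.01, 11 with quantile normalization, 16 with correction for GC content and length, 16 with array quality weights and 3 with only the 2 compared groups in the fit. Leaving out single libraries gave 1 to 30. Counts under the other settings lay between 5 and 9. The cause of these shifts was not tested. With the replicate number as a block limma called 0 genes, with 564 at an unadjusted p under 0.05, while voom without a block called 8. The numbers did not pair the libraries, since the correlations of same-numbered libraries were 0.01, -0.06, -0.11 and -0.11. The 17 genes that differed between cortex and hippocampus became 27 with a pseudocount of 1, 40 with correction for GC content and length and 29 with no animal block, and 2 to 80 when single libraries were left out. Between cortex and thalamus every setting run gave 0 by limma or voom, with 23 to 60 genes at an unadjusted p under 0.05. Log2 fold changes of 118 named genes were recomputed, giving 2933 values, of which 70 lost the threshold and 50 gained it. None changed direction among the 95 genes that were among the 24 of the library plots or at an unadjusted p under 0.05, a p that chose them. Among the 23 others, 10 did. *Spi1* turned to 0.0090 with a pseudocount of 1, 0.024 with quantile normalization, 0.0012 with median-ratio scaling and 0.035 with voom, *Csf1* to 0.022 with quantile normalization and *Lpl* to -0.0063 with array quality weights. Leaving out single libraries gave values on both sides of 0, from -0.16 to 0.23 for *Spi1*, -0.023 to 0.019 for *Csf1*, -0.083 to 0.16 for *Lpl*, -0.017 to 0.14 for *Lats2*, -0.043 to 0.13 for *Mbp*, -0.25 to 0.63 for *Fos*, -0.12 to 0.48 for *Hba-a1*, -0.029 to 0.16 for *Cldn5*, -1.04 to 0.038 for *Ttr* and -0.60 to 0.15 for *Arc*. Named genes under the filter, *S100a9* among them, were not followed. Low depth limits genes such as *Ms4a7* and *Ccr1*, which rested on few reads in the irradiated controls.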

Other observations

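*Nnt*, a mitochondrial transhydrogenase gene, stood at 9.80, 8.70, 10.5 and 10.4 FPKM in GFP-BM REPOP, at 8.88, 8.58, 9.26 and 9.38 in GFP-BM CON and at 6.21, 5.40 and 6.13 in WT CON, so that WT CON lay below both transplanted groups. *Wdfy1*, an endosomal adaptor gene, stood at 15.2, 10.9, 18.6 and 18.3, at 11.5, 12.8, 13.1 and 16.8 and at 6.84, 6.77 and 6.51, with WT CON again the lowest. These genes were chosen after their values were seen, and whether strain background differed between animals was not tested. The difference of the median log2 level between GC-rich and GC-poor genes was 0.75 to 1.24 in WT CON.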
